A study of Arabidopsis thaliana with 12 samples.

Results

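The 9 genes described here encode CC-type glutaredoxins of Arabidopsis thaliana: AT2G47880, AT3G62930, AT3G62950, AT4G15660, AT4G15670, AT4G15680, AT4G15690, AT4G15700 and AT5G18600. They were followed through 3 genotypes on 12 one-colour expression arrays. The genes were taken by locus identifier from the array annotation, and the set was picked because AT2G47880 had fallen in both altered lines. The arrays carried probes for 25665 loci, of which 20640 passed the filter on dim probes. All 9 genes passed, each with 1 probe printed as 1 spot. They are part of a family of 21 listed CC-type genes, of which 18 could be tested. The reference gene table gives the 9 loci no symbol, so they are called by locus.

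Glutaredoxins are small proteins of the thioredoxin fold that reduce disulfides or carry iron-sulfur clusters with the help of glutathione. The CC class is named for a pair of adjacent cysteines in the active-site motif and occurs only in land plants. Members of the class bind TGA transcription factors of the bZIP family, and several recruit the corepressor TOPLESS to them. Different members are known from petal and anther development, from salicylate and jasmonate cross-talk, and from long-distance signalling of nitrogen demand from shoot to root.

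All seedlings were in the Columbia-0 background, were 2 weeks old and were harvested whole, with many seedlings going into an RNA sample. The growth medium was MS agar holding 1% sucrose, at 23 °C, in 16 h of light and 8 h of darkness, with no other treatment named. The groups were wild type, the glk1 glk2 double mutant, and a line (GLK1-SRDX) in which the 35S promoter, active in most plant tissues, drives GLK1 joined to the SRDX repression domain. The GLK proteins are transcription factors needed for normal chloroplast formation. Each group had 4 arrays. Nothing in the labels says that these came from separate cultures, so p-values measure the spread between the arrays, which may be technical. By its title, the series was about how plants withstand a polluted atmosphere by closing stomata.

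Signals are given as a percentage of the 75th percentile of intensity on the same array, and differences on the log2 scale as estimated by limma over all 12 arrays. A gene is called where its adjusted p is under 0.05. In glk1 glk2, GLK2 (AT5G44190) was lower than in wild type by -7.51 ± 0.19 (SE, n = 4 per group, limma adjusted p = 5.36e-09) and GLK1 (AT2G20570, GPRI1 in the reference table) by -2.23 ± 0.28 (adjusted p = 0.00291), each on 4 of 4 arrays. In GLK1-SRDX the differences from wild type were 0.84 for GLK1 (adjusted p = 0.0664) and 0.62 for GLK2 (adjusted p = 0.0546), with all 4 arrays above wild type for both. GLK1 passed in 6 of 22 alternatives, with adjusted p down to 0.00685 in a fit on these 2 groups alone, and without glk1 glk2 replicate 3 or 4 (0.0248 and 0.0162). GLK2 passed in 5, with adjusted p down to 0.0228 without glk1 glk2 replicate 4, and without wild-type replicate 4 (0.0463). Whether the GLK1 probe reads the transgene was not tested. Over all loci, 684 were called in glk1 glk2 against wild type (66.5% of them higher, and 1410 called with the replicate number as a block), 2953 in GLK1-SRDX against wild type (55.2% higher) and 1923 between the lines (59.8% higher in GLK1-SRDX). Scaling to the array median gave 90.9% and 78.7% higher for the comparisons with wild type. The authors' series table gave 2.94% higher for glk1 glk2 against wild type and 90.5% higher between the lines. Wild type and glk1 glk2 shared slides 1 and 2 equally, with 2 arrays of each on either slide. The third slide carried the 4 GLK1-SRDX arrays alone, and therefore slide effects and this line cannot be told apart. Root marker signal also differed between samples. The summed signal of 19 root markers, in multiples of the 75th percentile, was 25.5 to 37.1 in wild type, 6.76 to 38.1 in glk1 glk2 and 9.81 to 16.8 in GLK1-SRDX, and 18 or 19 of the 19 were well above background on each array. Replicate 3 of glk1 glk2 lay at 38.1 and the other 3 arrays of that line between 6.76 and 17.4.

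AT2G47880 had 3 separate levels. In wild type its signal was 40.7%, 72.2%, 66.1% and 46.2% on replicates 1 to 4. In glk1 glk2 it was 13.8%, 25.2%, 9.78% and 19.4%, and in GLK1-SRDX it was 5.96%, 5.28%, 3.74% and 4.53%. No array of one group overlapped another group, and the lowest GLK1-SRDX array lay 19.3-fold below the highest wild-type array. Within a group the spread was smaller, with the highest array 1.77-fold above the lowest in wild type, 2.58-fold in glk1 glk2 and 1.59-fold in GLK1-SRDX. The probe was well above background on all 12 arrays.

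Against wild type, AT2G47880 was 3.41-fold lower in glk1 glk2 (-1.77 ± 0.29 SE) and 11.4-fold lower in GLK1-SRDX (-3.51 ± 0.29 SE). These differences are why the gene was picked, so they describe it and carry no test here, and both share the wild-type arrays. Within slide 1 the difference between glk1 glk2 and wild type was -1.54, and within slide 2 it was -2.003. The comparison between the lines was not itself used to pick the gene. It rests on the same arrays of both lines as the comparisons that were, so it is not an independent test. There AT2G47880 fell 3.33-fold from glk1 glk2 to GLK1-SRDX (-1.74, 95% confidence interval -2.38 to -1.09, limma adjusted p = 0.00512), and all 4 GLK1-SRDX arrays lay below all 4 glk1 glk2 arrays. The call held in 22 of 22 alternative settings, with adjusted p between 0.00209 and 0.04996. By the fitted change between the lines it ranked 111 from the lowest of 20640 loci. In whole seedlings, fewer cells that express a gene and less RNA per cell cannot be told apart. The root markers fell together with this gene in GLK1-SRDX against wild type, by a median of -1.64 over the 19, and the part they have in the difference was not tested. On glk1 glk2 replicate 3, where the root markers stood at the wild-type level (median difference 0.13), AT2G47880 read 9.78%, the lowest value of its group. GLK1-SRDX replicate 3 also had its group's highest root-marker median (-1.18) and lowest AT2G47880 value (3.74%). In wild type both were highest on replicate 2 (0.21 and 72.2%). These are single arrays, and what they say of tissue composition was not tested.

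**Figure D1:**
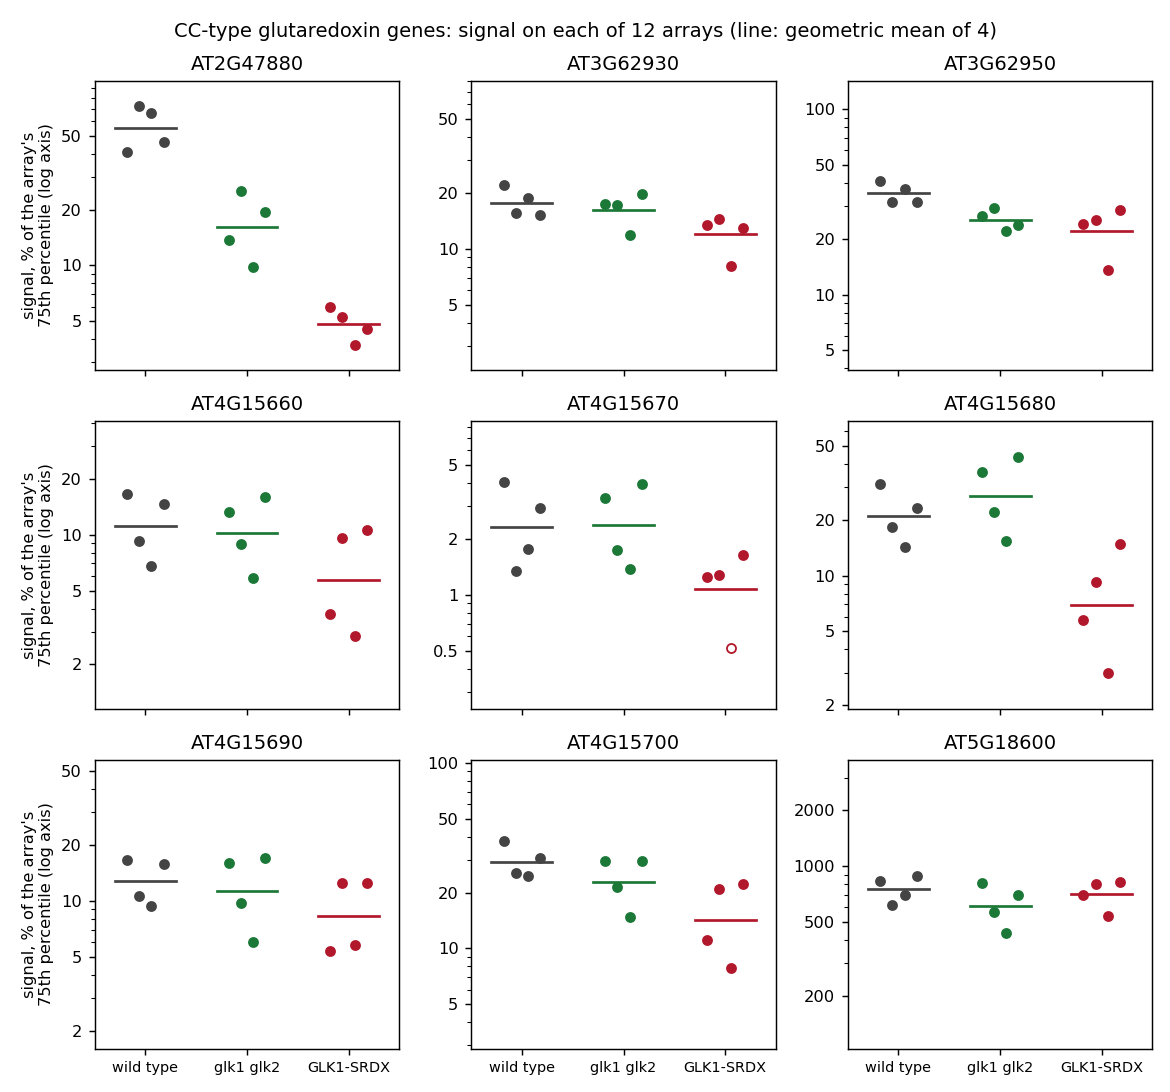
Signal of each of the 9 CC-type glutaredoxin genes on each of the 12 arrays, as a percentage of the array's 75th percentile on log axes that all span the same fold range (points, arrays; lines, geometric means of 4; open point, not well above background). AT2G47880 forms 3 separate groups of points, from 40.7% to 72.2% in wild type down to 3.74% to 5.96% in GLK1-SRDX, while the groups of AT5G18600 overlap throughout.

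AT3G62930 and AT3G62950 lie close together on chromosome 3, with 1 gene, AT3G62940, between them. AT3G62930 read 22.0%, 15.6%, 18.7% and 15.3% in wild type, 17.4%, 17.1%, 11.9% and 19.7% in glk1 glk2, and 13.4%, 14.5%, 8.12% and 13.0% in GLK1-SRDX. Wild type and glk1 glk2 overlapped, and all 4 GLK1-SRDX arrays lay below wild type. Its differences were -0.13 in glk1 glk2 and -0.57 in GLK1-SRDX against wild type. From glk1 glk2 to GLK1-SRDX the difference was -0.44 (95% confidence interval -0.91 to 0.02, adjusted p = 0.230).

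AT3G62950 was lower than in wild type on every array of both lines. It read 40.9%, 31.7%, 37.3% and 31.7% in wild type, 26.6%, 29.1%, 22.1% and 23.6% in glk1 glk2, and 24.0%, 25.4%, 13.7% and 28.5% in GLK1-SRDX. The log2 differences from wild type, -0.48 in glk1 glk2 and -0.67 in GLK1-SRDX, had a standard error of 0.21 each, and neither was called. The lines overlapped each other, with a difference of -0.19 (95% confidence interval -0.65 to 0.26, adjusted p = 0.635). Its neighbour AT3G62960, a further CC-type gene, was well above background on 0 arrays and was not tested.

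AT4G15660, AT4G15670, AT4G15680, AT4G15690 and AT4G15700 are 5 consecutive genes on chromosome 4. Their arrays within a genotype spread up to 4.98-fold (AT4G15680 in GLK1-SRDX), more than those of AT3G62930, AT3G62950 or AT5G18600, whose largest spread within a genotype was 2.09-fold. Near-identical copies can share signal on an array. Whether these probes distinguish the 5 transcripts was not tested, because probe sequences were not used here.

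AT4G15680 differed most between the lines among the 5. It read 31.0%, 18.3%, 14.3% and 23.3% in wild type, 36.0%, 21.9%, 15.3% and 43.8% in glk1 glk2, and 5.78%, 9.26%, 2.97% and 14.8% in GLK1-SRDX. All 4 GLK1-SRDX arrays lay below all 4 glk1 glk2 arrays, whereas GLK1-SRDX replicate 4 (14.8%) lay just above wild-type replicate 3 (14.3%). AT4G15680 fell 3.87-fold from glk1 glk2 to GLK1-SRDX (-1.95 ± 0.49 SE, 95% confidence interval -3.02 to -0.88, limma adjusted p = 0.0308). Leaving out any one of glk1 glk2 replicates 1, 2 and 4 (adjusted p = 0.0886, 0.0542 and 0.0662) or of GLK1-SRDX replicates 1, 2 and 3 (0.0865, 0.0539 and 0.0734) ended this call. So did normexp background correction (0.103), the series table (0.0595) and a fit on the 8 arrays of both lines alone (0.0763). Its differences from wild type were 0.37 in glk1 glk2 and -1.58 in GLK1-SRDX.

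AT4G15700 read 37.8%, 25.5%, 24.6% and 30.7% in wild type, 29.5%, 21.4%, 14.7% and 29.5% in glk1 glk2, and 11.1%, 20.8%, 7.86% and 22.3% in GLK1-SRDX. Its GLK1-SRDX arrays lay below wild type without overlap (-1.04), and its glk1 glk2 arrays overlapped both other groups. The difference between the lines was -0.69 (95% confidence interval -1.45 to 0.07, adjusted p = 0.251).

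AT4G15660 and AT4G15690 overlapped between all 3 groups. AT4G15660 ran from 6.81% to 16.7% in wild type, from 5.83% to 16.0% in glk1 glk2 and from 2.83% to 10.6% in GLK1-SRDX, and AT4G15690 from 9.34% to 16.6%, from 6.03% to 17.1% and from 5.36% to 12.5%. Between the lines the differences were -0.84 for AT4G15660 (95% confidence interval -1.92 to 0.23, adjusted p = 0.334) and -0.44 for AT4G15690 (-1.31 to 0.43, adjusted p = 0.561). These intervals include decreases of more than 1 log2 unit as well as 0.

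AT4G15670 was the one of the 9 genes not well above background on every array. It read 4.08%, 1.35%, 1.76% and 2.94% in wild type, 3.31%, 1.74%, 1.38% and 3.95% in glk1 glk2, and 1.24%, 1.28%, 0.515% and 1.64% in GLK1-SRDX, where replicate 3 was not well above background. With that array at its lowest measurable signal, GLK1-SRDX was lower than glk1 glk2 by at least 1.10 and lower than wild type by at least 1.06 on the log2 scale, and the groups overlapped in both cases. The fitted difference between the lines was -1.14 (adjusted p = 0.163).

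On 11 of the 12 arrays the 5 genes all lay on the same side of their own group's mean, above it on 6 arrays and below it on 5. They were high together on wild-type replicates 1 and 4, glk1 glk2 replicates 1 and 4, and GLK1-SRDX replicates 2 and 4. They were low together on wild-type replicates 2 and 3, glk1 glk2 replicates 2 and 3, and GLK1-SRDX replicate 3. The exception was GLK1-SRDX replicate 1, where AT4G15670 lay above its group's mean and the other 4 below. The mean deviation of the 5 genes reached 0.76 on GLK1-SRDX replicate 4 and -0.94 on GLK1-SRDX replicate 3. The shared deviation was not limited to the 5 neighbours. AT5G18600, on chromosome 5, lay on the same side as their mean on all 12 arrays, with smaller deviations on every array (for example -0.48 beside -0.79 on glk1 glk2 replicate 3, and -0.39 beside -0.94 on GLK1-SRDX replicate 3). AT2G47880 lay on the opposite side on 8 arrays, among them all 4 of wild type, and on the same side on 4, glk1 glk2 replicates 3 and 4 and GLK1-SRDX replicates 2 and 3. AT3G62930 lay on the opposite side on wild-type replicates 3 and 4, glk1 glk2 replicate 2 and GLK1-SRDX replicate 1. AT3G62950 did so on these arrays and on glk1 glk2 replicate 4. Wild-type and glk1 glk2 arrays of the same number deviated together, so the 12 arrays are not 12 separate observations. How many of all loci followed the 5 genes in this way was not counted. Root-marker medians were set beside the deviations of the 5 genes. Among glk1 glk2 arrays the 5 genes were lowest on replicate 3 (-0.79), where the root markers were highest (median 0.13 against the wild-type mean), and highest on replicate 4 (0.61), where the root markers were lowest (-2.47). Among GLK1-SRDX arrays the 5 genes were also lowest on replicate 3 (-0.94), where the root markers were highest (-1.18). They were high on replicates 2 and 4, with root-marker medians of -1.98 and -1.44. In wild type the 5 genes were high on replicates 1 and 4, with root-marker medians of 0.13 and -0.37. They were low on replicates 2 and 3, with medians of 0.21 and -0.03. The part of tissue composition in this spread was not tested.

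**Figure D2:**
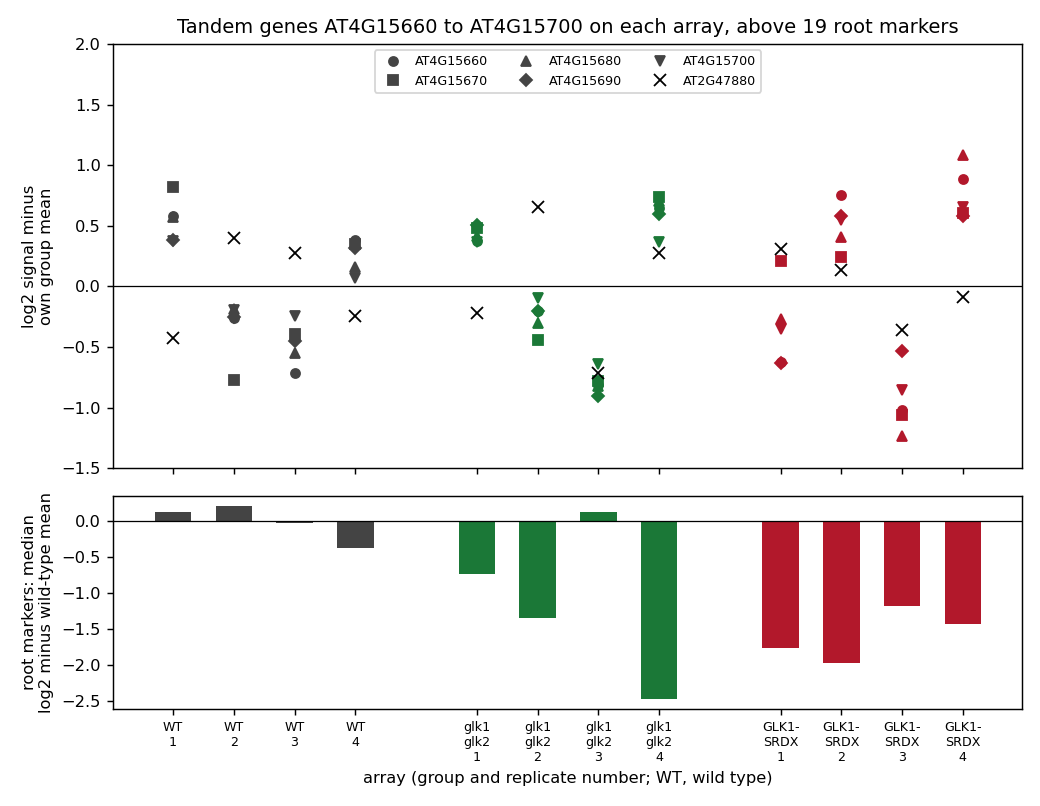
Upper panel, log2 signal of the 5 tandem genes and of AT2G47880 on each array minus the mean of the array's own group. Lower panel, median log2 difference of 19 root markers on the same arrays from the wild-type mean. The 5 genes sit together above or below 0 on 11 of 12 arrays, and the root-marker bars reach -2.47 on glk1 glk2 replicate 4.

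The groups of AT5G18600 overlapped throughout. It read 836%, 618%, 698% and 882% in wild type, 814%, 567%, 439% and 700% in glk1 glk2, and 704%, 805%, 539% and 818% in GLK1-SRDX. The differences from wild type were -0.29 in glk1 glk2 and -0.09 in GLK1-SRDX. Between the lines the difference was 0.20 (95% confidence interval -0.25 to 0.65, adjusted p = 0.606), an interval that leaves out a change of 1 log2 unit in either direction.

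Counted over the 9 genes, AT2G47880 alone was called lower in glk1 glk2 against wild type and 0 were called higher, where 1.11% of all loci were called lower and 2.20% higher. In GLK1-SRDX against wild type AT2G47880 was again the one gene called lower, with a background of 6.41%, and all 9 estimates were below 0 with a median of -0.96, against a median of 0.01 over all loci. With scaling to the array median, 8 of 9 were below 0 there, and the median of all loci stood at 0.19 in both comparisons with wild type. Since the set was picked on these contrasts, nothing is read from those counts. The groups did not overlap, with the line lower, for 2 genes in glk1 glk2 (3.20% of all loci) and for 4 in GLK1-SRDX (13.2%), which likewise describes the picked set. The number called in GLK1-SRDX against wild type rose to 4, adding AT3G62950, AT4G15680 and AT4G15700, without glk1 glk2 replicate 3, without GLK1-SRDX replicate 4 or with slide as a random block. It was 3, adding AT3G62950 and AT4G15680, when all 12 arrays had to be well above background, and 2, adding AT4G15680, without glk1 glk2 replicate 4. Calls over all loci in this comparison moved too, from 797 to 4434 over the 22 alternatives beside 2953 in the main fit. The higher counts are therefore not read as a result about the 9 genes. Between the lines, 2 of 9 were called lower and 0 higher, where 3.75% of all loci were called lower and 5.57% higher. The lines did not overlap, with GLK1-SRDX lower, for the same 2 genes, AT2G47880 and AT4G15680, against 7.77% of all loci. The median of the 9 was -0.69 there, against -0.01 over all loci, and -0.41 without GLK1-SRDX replicate 3. The 9 are not separate readings, since 5 are neighbours that deviated together on 11 of 12 arrays. Over the 9 other tested genes of the class the median between the lines was 0.0042.

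The other 12 listed genes of the class included 11 with a probe, of which 9 were tested. AT2G47870, the neighbour of AT2G47880, was well above background on 1 array and was not tested. In glk1 glk2 against wild type 0 of 9 were called by limma (1 at an unadjusted p under 0.05), where 1.11% of all loci were called lower and 2.20% higher. In GLK1-SRDX against wild type 2 fell and 1 rose, where 6.41% of all loci were called lower and 7.89% higher. Between the lines 2 fell and 2 rose, where 3.75% of all loci were called lower and 5.57% higher. AT1G03020 read 1.59%, 1.45%, 1.52% and 1.86% in wild type, 1.80%, 1.81%, 0.996% and 2.91% in glk1 glk2, and 0.199%, 0.272%, 0.274% and 0.886% in GLK1-SRDX. Of the GLK1-SRDX arrays 1 was well above background, so AT1G03020 was at least 2.27-fold lower there than in wild type (adjusted p = 0.00762) and at least 2.48-fold lower than in glk1 glk2 (adjusted p = 0.00746). The adjusted p-values belong to the fitted differences on the signal as measured (-2.24 and -2.37), not to these bounds. With normexp background correction neither call was made (adjusted p = 0.308 and 0.949). The offset of 50 in that correction is larger than most processed intensities of this gene (4.25 to 73.3), which draws its differences towards 0.

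ROXY2 (AT5G14070), which acts with ROXY1 in anther development, read 2.44%, 2.21%, 2.45% and 1.29% in wild type, 1.92%, 1.73%, 1.46% and 1.63% in glk1 glk2, and 0.451%, 1.17%, 0.807% and 0.965% in GLK1-SRDX. The 4 GLK1-SRDX arrays lay below those of both other groups, and 3 of them were well above background. ROXY2 was at least 2.24-fold lower in GLK1-SRDX than in wild type (adjusted p = 0.0125, 0.285 with normexp correction and 0.0683 with the replicate block). It was at least 1.85-fold lower than in glk1 glk2 (adjusted p = 0.0419). This second call was lost without any one of wild-type replicates 1, 2 and 3 (0.0567, 0.0597 and 0.0530), glk1 glk2 replicates 1, 2 and 4 (0.111, 0.0867 and 0.0669) and GLK1-SRDX replicates 1, 3 and 4 (0.0811, 0.0960 and 0.0573), and with 6 other settings (up to 1.00 with normexp correction). ROXY1 (AT3G02000), needed for petal initiation, differed by -0.15 and -0.14 from wild type in glk1 glk2 and GLK1-SRDX (adjusted p = 0.552 and 0.499).

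AT5G11930 and AT4G33040 differed in the other direction. AT5G11930 read 1.20%, 1.14%, 1.28% and 1.30% in wild type, 0.844%, 0.715%, 1.18% and 0.953% in glk1 glk2, and 2.57%, 1.59%, 2.94% and 1.51% in GLK1-SRDX. It was 2.27-fold higher in GLK1-SRDX than in glk1 glk2, where 3 of 4 arrays were well above background (1.18 ± 0.22 SE, adjusted p = 0.00850), and 1.68-fold above wild type (0.75 ± 0.22 SE, adjusted p = 0.0461). The call against wild type was lost without any one of wild-type replicates 1 to 4 (0.103, 0.108, 0.0819 and 0.0716), glk1 glk2 replicate 1 (0.0647) and GLK1-SRDX replicates 1 and 3 (0.124 and 0.106), with the series table (0.135), with the replicate block (0.0718) and without the filter on dim probes (0.0622), and its direction turned to -0.60 with normexp correction. Between the lines the call was lost with normexp correction alone (1.00). AT4G33040 was 1.82-fold higher in GLK1-SRDX than in glk1 glk2 (0.87 ± 0.21 SE, adjusted p = 0.0264), with 6.96% to 12.2% against 4.32% to 6.70% and no overlap. Without glk1 glk2 replicate 1 or 2 (0.0806 and 0.0681) or GLK1-SRDX replicate 1 or 3 (0.0815 and 0.0781) that call was lost, as it was with normexp correction (0.751), with the 8 arrays alone (0.0725) and with the replicate block (0.0724).

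The remaining tested genes of the class did not pass in any comparison in the fit over all 12 arrays. AT2G30540 came closest, at -0.82 between the lines with no overlap (adjusted p = 0.0541), and it passed without wild-type replicate 3 (0.0486) or glk1 glk2 replicate 3 (0.0274) and with the replicate block (0.0290) or slide as a block (0.0376), followed by AT1G06830 at -0.57 in GLK1-SRDX against wild type, also with no overlap (adjusted p = 0.0622, 0.0167 without glk1 glk2 replicate 3, 0.0265 with these 2 groups alone and 0.0479 with slide as a block). AT1G06830 also passed between the lines without glk1 glk2 replicate 3 (-0.52, adjusted p = 0.0448). GRX480 (AT1G28480), a TGA-binding member induced by salicylate, differed by -0.31 and -0.29 from wild type in glk1 glk2 and GLK1-SRDX (adjusted p = 0.684 and 0.647). GRXS13 (AT1G03850) differed by -0.56 from wild type in both (0.353 and 0.258). Its other kept probe, which was dimmer and did not stand for the locus, differed by -0.71 and -0.76. Over the 18 tested genes of the class, AT2G47880 was the one called lower in both lines against wild type, as were 72 loci in all (0.349%). The gene was picked on that criterion, so nothing is read from this.

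**Figure D3:**
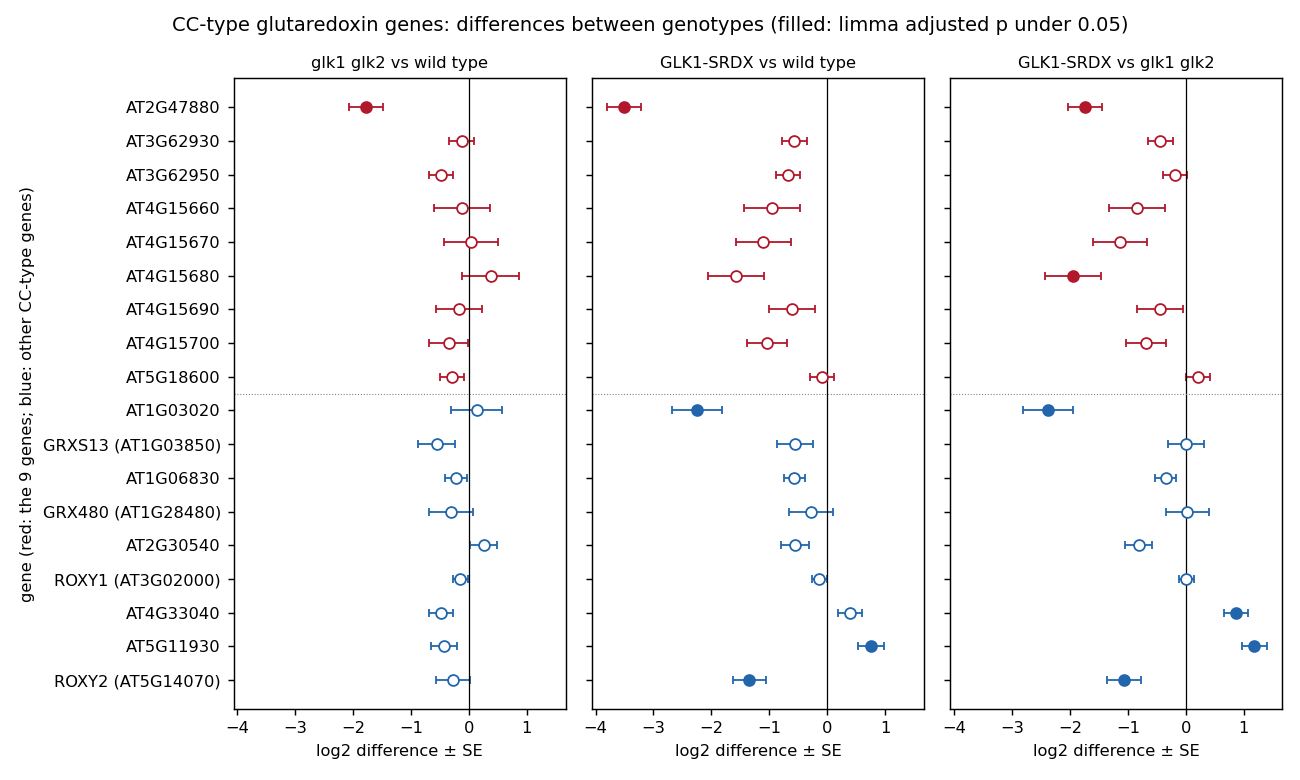
Log2 difference ± SE (n = 4 arrays per group) of the 18 tested CC-type glutaredoxin genes in the 3 comparisons; red, the 9 genes, whose differences from wild type are descriptions only; blue, the other 9; filled points have a limma adjusted p under 0.05. AT2G47880 is filled in all 3 panels, and in the right panel AT4G15680, AT1G03020 and ROXY2 are lower and AT4G33040 and AT5G11930 higher in GLK1-SRDX. Points are fitted differences, also for AT1G03020, which was well above background on 1 of 4 GLK1-SRDX arrays.

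Partners and pathway genes were taken from lists, whose counts stand beside shares over all loci of 2.20%, 7.89% and 5.57% called higher and 1.11%, 6.41% and 3.75% called lower in glk1 glk2 against wild type, GLK1-SRDX against wild type and GLK1-SRDX against glk1 glk2. At an unadjusted p under 0.05, 4053, 6338 and 5057 of the 20640 loci passed in these comparisons. Of 9 tested glutaredoxins of the CPYC and CGFS classes, which serve redox and iron-sulfur functions, GRX4 rose in glk1 glk2 by 0.29 (adjusted p = 0.0461), GRXC2 and GRXS17 rose in GLK1-SRDX against wild type by 0.33 and 0.22 (0.0296 and 0.0387), and 0 were called between the lines (5 at an unadjusted p under 0.05). The GRX4 call was lost without any single array other than glk1 glk2 replicate 3 (0.0671 to 0.135). The GRXC2 call was lost without wild-type replicate 1, 3 or 4 or any GLK1-SRDX array (0.0534 to 0.0783), and the GRXS17 call without any wild-type or GLK1-SRDX array or glk1 glk2 replicate 1 (0.0580 to 0.109). The 10 TGA factors had 0 calls in glk1 glk2 and between the lines (0 and 2 at an unadjusted p under 0.05) and 1 rise in GLK1-SRDX against wild type, that of PAN, a floral regulator (0.65, adjusted p = 0.0431). This was lost without wild-type replicate 1, 2 or 4, glk1 glk2 replicate 1 or 2, or GLK1-SRDX replicate 2, 3 or 4 (0.0548 to 0.106). Of 5 TOPLESS corepressors, 0 were called in glk1 glk2 (0 unadjusted) and TPL itself rose in GLK1-SRDX by 0.54 ± 0.13 SE against wild type (adjusted p = 0.0230). That call was lost without wild-type replicate 1 (0.0672) or GLK1-SRDX replicate 1, 2 or 3 (0.0647, 0.0574 and 0.0611). Between the lines TPL rose by 0.48 (adjusted p = 0.0464), a call lost without wild-type replicate 1 or 3, glk1 glk2 replicate 1 or 4, or any GLK1-SRDX array (0.0573 to 0.123). Over all alternatives, the calls of GRX4, GRXC2, GRXS17, PAN and, between the lines, TPL were lost in 17, 10, 13, 12 and 13 of 22, with adjusted p up to 0.744, 0.259, 0.249, 0.719 and 0.197.

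Of 19 genes of nitrate reduction and response, 0 were called in glk1 glk2 (3 at an unadjusted p under 0.05), and 3 fell and 0 rose in GLK1-SRDX against wild type. Over all loci, 6.41% were called lower there. NIA1, a nitrate reductase gene, had the largest fall of the 3 (-1.26 ± 0.38 SE, adjusted p = 0.0482), and its call was lost in 14 of 22 alternatives, among them the removal of any array other than glk1 glk2 replicate 3 or 4 (adjusted p 0.0541 to 0.115). AT1G64530, the third, lies outside the rule for named genes. BT1, a nitrate-responsive BTB protein, was 2.31-fold lower (-1.21 ± 0.22 SE, adjusted p = 0.00638, 0.0509 with normexp correction) and did not overlap wild type. Between the lines 5 of the 19 fell and 0 rose, where 3.75% of all loci were called lower, among them BT1 at -1.54 (adjusted p = 0.00254) and the nitrite reductase gene NIR1 at -0.97 (adjusted p = 0.0136). The other 3, NIA2, UPM1 and BT2, lie outside the rule that fixed the named genes. The NIR1 call was lost with normexp correction (0.0600) and with the series table (0.116). Of 7 tested genes of nitrate transport and CEP peptide signalling, 0 were called in glk1 glk2 (2 unadjusted) and NRT2.3 rose in GLK1-SRDX, where it was at least 2.30-fold above wild type (adjusted p = 0.0118) and at least 2.33-fold above glk1 glk2 (0.0257). In both of the other groups 1 of 4 arrays was well above background. With normexp correction NRT2.3 differed from wild type by -0.52, and against glk1 glk2 the call was lost in 7 of 21 alternatives. These were the removal of glk1 glk2 replicate 1 or 2 or GLK1-SRDX replicate 2 or 4 (0.0626 to 0.0750), the 8 arrays alone (0.0530), the replicate block (0.0567) and normexp correction (1.00, with a difference of 0.30). Of 9 tested type-A cytokinin response regulators, 0 were called in glk1 glk2 (2 unadjusted), ARR3 fell in GLK1-SRDX against wild type (-1.87, adjusted p = 0.0497) and 0 were called between the lines (1 unadjusted). The ARR3 call was lost in 14 of 22 alternatives (adjusted p up to 0.181), among them the removal of any one wild-type or GLK1-SRDX array or of glk1 glk2 replicate 1 or 2 (0.0561 to 0.137).

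Marker lists for other tissues were set beside these values. Of 19 root markers, 0 were called in glk1 glk2 (12 at an unadjusted p under 0.05, where 4053 of 20640 loci passed, median -1.15). In GLK1-SRDX against wild type 8 of 19 fell, with 6.41% of all loci called lower, while SHR and SCR differed by -0.20 and -0.0039 (adjusted p = 0.497 and 0.979). CASP5 fell between the lines, a call lost in 4 of 21 alternatives, namely without GLK1-SRDX replicate 1 (adjusted p = 0.0506), with the 8 arrays alone (0.0546), with normexp correction (0.124) and with the replicate block (0.135). The summed signal of 4 phloem markers was 8.65 to 10.4 in wild type, 7.35 to 8.99 in glk1 glk2 and 11.6 to 13.7 in GLK1-SRDX, in multiples of the 75th percentile. HA3 differed most of the 4 in GLK1-SRDX, at 0.87 against wild type, where SUC2, APL and PP2-A1 differed by 0.05, 0.09 and 0.22 and were not called (adjusted p = 0.858, 0.620 and 0.204). The list median there was 0.15. Between the lines 2 of the 4 were called higher, HA3 and PP2-A1, where 5.57% of all loci were called higher. PP2-A1 differed by 0.47 (limma adjusted p = 0.0238) without overlap. Its call was made in 14 of 22 alternatives, with adjusted p up to 0.114.

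The loci most like AT2G47880 were sought by the root mean square log2 difference over the 12 arrays, after centring each locus on its wild-type mean. IAA29, an auxin-response repressor, was nearest at 0.59 log2 units, with group means of -1.99 in glk1 glk2 and -3.09 in GLK1-SRDX. FUM2, a cytosolic fumarase, followed at 0.62 (-2.42 and -3.16), then BAM6 at 0.82 (-1.62 and -3.08), AT2G31930 at 0.82 and AT3G55240 at 0.84. The distances of the last 2 rest partly on signal not well above background. AT2G31930 was well above background on 2 of 4 glk1 glk2 arrays and 0 of 4 GLK1-SRDX arrays, and was at least 2.44-fold and at least 3.14-fold below wild type there. AT3G55240 had a mean of -2.68 in glk1 glk2 and was at least 10.9-fold below wild type in GLK1-SRDX, where 1 of 4 arrays was well above background. The other 8 glutaredoxin genes lay between 1.73 and 2.20 from AT2G47880, from rank 965 (AT4G15700) to rank 5682 (AT5G18600) among 20524 loci ordered by likeness. Even AT5G18600, whose groups overlapped throughout, held that rank, so a rank alone does not show likeness to AT2G47880.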

How the data were processed

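RNA of 12 whole-seedling samples was measured on Agilent arrays, 1 µg of total RNA labelled with Cy3 for each, per the labels' protocols. The deposited scanner files give each spot's linear intensity. The scanner software was Agilent Feature Extraction 9.1.3.1 (submitters' processing notes), and the processed intensity is background-subtracted per the file headers. The authors' series table, also an intensity, proved to be that value divided by 1 constant per genotype. Its scale is linear without centring, and where the constants came from is not stated in what was used.

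For each array, log2 of the deposited processed intensity was taken relative to the 75th percentile (1556 to 2519 intensity units), without control and outlier spots. Probes stayed in when at least 4 of 12 arrays showed them well above background and each group had at least 3 arrays with no outlier mark. The brightest kept probe stood for a locus. Of 20640 tested loci, 20521 were found in a RefSeq gene table (TAIR10.1), used for names and gene order only. Between 63.9% and 68.5% of an array's probes were well above background, with 0 saturated. The number of arrays limits the precision (median SE of a log2 difference 0.14).

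Comparisons used 1 two-sided limma fit (lmFit, then eBayes) of the 12 arrays with 9 residual degrees of freedom, in limma 3.58.1 under R 4.3.3. P-values were adjusted by Benjamini-Hochberg over every tested locus, at a threshold of 0.05. The steps were tested on simulated data. "At least" folds raise a spot that lies below the lowest signal well above background on its array to that signal. They bound the mean for dim spots only, are not confidence limits, and can be larger than the fold under an alternative setting. An adjusted p printed beside such a fold comes from the fit on the signal as measured and does not test the bound. Alternatives were another background correction (normexp with an offset of 50 on the median spot and background signals), other scalings and filters, the series table, only the groups compared, blocks and leaving out each array. Because the offset draws differences between dim signals towards 0, normexp cannot decide on calls of dim genes such as AT1G03020, ROXY2 and AT5G11930.

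Replicate numbers come from the sample titles. Between wild type and glk1 glk2, arrays of the same number deviated together from their group means (correlations 0.32 to 0.76, 4 of 4 over 0.1), so the numbers pair these samples. The values given are from the fit without a block, and the fit with replicate number as a block is an alternative. Those of GLK1-SRDX with wild type (-0.20 to 0.26) and with glk1 glk2 (-0.10 to 0.58) did not pair.

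The genes and lists were chosen with earlier results of these data known. The named genes were the 9 genes, the other CC-type genes, GLK1 and GLK2, up to 2 passing members of each other list in each direction by size of change, and the 5 loci most like AT2G47880. NIA2, UPM1, BT2, AT1G64530, SUC2, APL, SHR and SCR were named after their values were seen. No sequences are shown because none were used here.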

Additional observations from a re-analysis of the deposited data

Results flagged for a closer look

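In 2 of 54 sets of 4 arrays of a CC-type glutaredoxin gene in a genotype, 1 array stood far from the other 3 by Dixon's criterion, which chance does in about 1 set in 20. AT4G33040 read 5.85% of the 75th percentile on wild-type replicate 1, against 7.48% to 7.53% on the other wild-type arrays. ROXY2 read 1.29% on wild-type replicate 4, against 2.21% to 2.45% on the others. Neither gene is among the 9, and none of the 27 sets of the 9 genes was flagged in this way.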

How the results depend on the processing

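The numbers of called loci moved most. Against 684 in glk1 glk2 versus wild type, normexp gave 145, median scaling 1794, the authors' series values 136 and the 2 groups alone 114. With the replicate block, which pairs these groups, 1410 were called, and the block changed no call of the 9 genes in that comparison. Leaving out 1 array gave 254 to 3205 (254, 272 and 367 without wild-type replicates 1, 2 and 4; 292, 355 and 3205 without glk1 glk2 replicates 1, 2 and 3; 413 without GLK1-SRDX replicate 2). Against 2953 in GLK1-SRDX versus wild type, normexp gave 797, median scaling 4434, the authors' series values 909, and leaving out 1 array 1505 to 4413. Against 1923 between the lines, normexp gave 286, median scaling 1174, the 2 groups alone 1261, the replicate block (numbers not paired) 710, and leaving out 1 array 996 to 2681. AT2G47880 kept its direction in all 22 alternatives of each comparison, and its call in glk1 glk2 versus wild type was lost in 1, the fit on these 2 groups alone. The gene was picked on the comparisons with wild type, so nothing is read from its directions and calls there. Directions of differences from wild type that turned in glk1 glk2 were, with normexp, AT4G15670 (-0.77), AT4G15680 (-0.10), AT1G03020 (-0.71) and AT2G30540 (-0.33), with median scaling AT3G62930 (0.063), AT4G15660 (0.071), AT4G15690 (0.016) and ROXY1 (0.044), with quantile normalization AT4G15660 (0.032), and with the series table AT4G15670 (-0.15) and AT1G03020 (-0.056). In GLK1-SRDX they were AT5G18600 (0.10 with normexp, 0.10 with median scaling, 0.018 with the series table), ROXY1 (0.046 with median scaling) and, with normexp, AT4G33040 (-0.26), AT5G11930 (-0.60) and NRT2.3 (-0.52). Between the lines they were GRXS13 (-0.036 with normexp, -0.0034 with median scaling, -0.024 with all probes averaged), GRX480 (-0.031 with normexp) and AT3G62950 (0.10 with the series table). Leaving out single arrays spanned 0 in glk1 glk2 versus wild type for AT4G15660 (-0.36 to 0.15), AT4G15670 (-0.22 to 0.31), AT3G62930 (-0.22 to 0.024), AT4G15690 (-0.37 to 0.13), GRX480 (-0.53 to 0.052) and AT1G03020 (-0.11 to 0.40), in GLK1-SRDX versus wild type for AT5G18600 (-0.18 to 0.043), and between the lines for AT3G62950 (-0.32 to 0.038), ROXY1 (-0.079 to 0.12), GRX480 (-0.34 to 0.24) and GRXS13 (-0.27 to 0.20). The cause of these changes was not tested. Of the 9 genes, signal over background limited AT4G15670, which was dropped when all 12 arrays had to be above background.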

Other observations

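Among the phloem markers, HA3 (AT5G57350), a plasma-membrane proton pump gene, was 1.83-fold higher in GLK1-SRDX than in wild type (0.87 ± 0.11 SE, limma adjusted p = 8.35e-04) and 1.90-fold higher than in glk1 glk2 (0.92 ± 0.11 SE, adjusted p = 9.76e-04), with all 4 GLK1-SRDX arrays above those of each other group. Among the root markers, CASP5, a Casparian strip membrane protein gene, was at least 20.1-fold lower in GLK1-SRDX than in wild type (adjusted p = 0.00262), with 2 of 4 GLK1-SRDX arrays well above background, and the potassium channel gene SKOR was 5.47-fold lower (adjusted p = 0.00545). Of 8 reference genes, ACT2 alone was called between the lines, where 3.75% of all loci were called lower. It was lower in GLK1-SRDX by -0.47 ± 0.11 (SE, limma adjusted p = 0.0208) without overlap. The call was made in 14 of 22 alternatives, with adjusted p up to 0.368. Against wild type 0 of the 8 were called in either line (1 at an unadjusted p under 0.05 in each).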
